A study of Nematostella vectensis with 4 samples.

Results

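Minicollagens are short collagens that build the wall of the nematocyst, the harpoon-like capsule inside the stinging cells, or cnidocytes, of corals, jellyfish and sea anemones. Their short triple helices are linked through cysteine-rich ends into a wall that withstands high pressure, and they are made while a cnidocyte builds its capsule. In *Nematostella vectensis*, the starlet sea anemone, cnidocytes first form in the embryonic ectoderm, and minicollagen transcripts mark cells that are on that path. The genes described here are *Nvncol1* (NV2g011820000.1) and *Nvncol3* (NV2g010686000.1), which are 2 of 3 genes listed by the study as cnidocyte markers and 2 of 24526 genes counted. They were chosen by name, and both were counted in every library. The position of either gene in the genome and their transcript lengths were not used here, so that counts are compared between cells or libraries for each gene and not between the genes.

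Gastrulae at 24 h post fertilization, with no treatment or mutation named, were pooled whole and dissociated with trypsin, and the pool was split over a 10x Genomics chip into 4 technical replicates (replicates 1 to 4) for 3′ single cell RNAseq. Each transcript is tagged before amplification with a random barcode, the unique molecular identifier or UMI, and counts are of distinct UMIs. Barcodes with at least 500 genes, called cells below, numbered 3680, 2907, 2268 and 7234 in replicates 1 to 4. Their median depth was 6556, 4986, 5285 and 2267 UMIs. Replicate 4 therefore held the most and the shallowest cells. Pairs of libraries shared between 1 and 14 barcode sequences, 40 in all. There is 1 group and no second condition, the spread between libraries is technical, and p-values measure that spread only. The 10 markers of other cell classes listed by the study were each detected, in between 157 and 1907 cells after the thinning described below.

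*Nvncol3* gave 74227, 33148, 30418 and 91630 UMIs in the cells of replicates 1 to 4, or 1654, 1338, 1339 and 1634 CPM (counts scaled to the same total of UMIs, so that libraries can be compared). Its level therefore fell between 1338 and 1654 CPM in every library. At least 1 *Nvncol3* UMI was found in 1669, 865, 743 and 3440 cells, and 50.2%, 51.1%, 51.3% and 41.3% of these held exactly 1. At the other end, 58, 44, 30 and 67 cells held 50% of the *Nvncol3* UMIs of their library, and the highest cell of each library held 1332, 732, 1300 and 1887. The gene was thus read out as a low signal over many cells and a high signal in few.

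*Nvncol1* gave 1042, 832, 427 and 1668 UMIs, or 23.2, 33.6, 18.8 and 29.8 CPM. It was present in 155, 90, 62 and 286 cells, and 48.4%, 42.2%, 35.5% and 51.8% of these held 1 UMI. Its UMIs were concentrated in few barcodes, so that 11, 1, 6 and 15 cells held 50% of them. In replicate 2 a single barcode with 459 *Nvncol1* UMIs held 55.2% of the gene's count. This barcode had 13953 UMIs and 2131 genes in all, and 116 *Nvncol3* UMIs. In replicates 1, 3 and 4 the top barcode held 17.2%, 22.5% and 6.24% of the *Nvncol1* UMIs. The top barcode of replicate 4 had 277444 UMIs and 12830 genes, and whether it held more than 1 cell was not tested. The *Nvncol1* fold change and the *Nvncol1* levels by class of *Nvncol3* count are given below with and without these 4 barcodes. Other results keep them unless stated.

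To compare the share of cells with each transcript at 1 depth, every cell was thinned to 1000 UMIs by random draw without replacement, and shallower cells were left out, which kept 3428, 2698, 2078 and 5968 cells. *Nvncol3* was then detected in 18.0%, 14.8%, 14.4% and 28.9% of cells, against 45.4%, 29.8%, 32.8% and 47.6% before thinning. *Nvncol1* was detected in 1.14%, 1.33%, 0.818% and 2.03% of cells, against 4.21%, 3.10%, 2.73% and 3.95% before thinning. The exact 95% binomial intervals of the *Nvncol1* shares were 0.810% to 1.55%, 0.936% to 1.84%, 0.477% to 1.31% and 1.69% to 2.42%, and they cover counting error only. Both shares were highest in replicate 4, whose *Nvncol3* share lay above the intervals of the other libraries.

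Free RNA in droplets gives UMIs in cells that do not express a gene, so these shares were set beside those in cells positive for *NvsnailA*, the *snail* homologue used as a mesoendoderm marker, a class not known to make nematocysts. *NvsnailA*-positive cells held *Nvncol3* in 14.1%, 7.58%, 8.77% and 19.7% of cases at the same thinned depth. Their median depth before thinning was 24280, 15720, 15210 and 3546 UMIs, and that of all thinned cells was 7280, 5396, 6038 and 3074. They held *Nvncol1* in 1 of 71, 1 of 66, 0 of 57 and 2 of 234 cells, where the count of 0 allows a share of up to 5.26%. *Nvncol3* was thus found in fewer *NvsnailA*-positive cells than of all cells in 4 of 4 libraries, but in at least 7.58% of them. In replicates 1 to 3 the share of all cells with *Nvncol1* lay within the range of 0% to 1.52% found in *NvsnailA*-positive cells. The results below turn on cells in which the genes were found together or at higher counts.

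The 2 transcripts were found in the same cells far more often than their shares alone would give. Both were detected in 32, 30, 14 and 111 thinned cells, where independent detection would give 7.01, 5.31, 2.45 and 35.0, a ratio of 4.57, 5.65, 5.72 and 3.17. Only 7, 6, 3 and 10 cells held *Nvncol1* without *Nvncol3*, and 584, 368, 285 and 1614 held *Nvncol3* without *Nvncol1*. Over the 4 libraries, 187 of 213 *Nvncol1*-positive cells were also *Nvncol3*-positive, whereas these 187 were a small part of the 3038 *Nvncol3*-positive cells. The overlap was therefore nested, with most *Nvncol1*-positive cells inside the *Nvncol3*-positive set.

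*Nvncol3* was detected in 82.1%, 83.3%, 82.4% and 91.7% of *Nvncol1*-positive cells and in 17.2%, 13.8%, 13.8% and 27.6% of *Nvncol1*-negative cells of replicates 1 to 4. The groups did not overlap, and the share was higher in the positive cells of 4 of 4 libraries. The means were 84.9% ± 4.61 and 18.1% ± 6.52 (SD, n = 4), a difference of 66.8 percentage points (two-sided exact permutation test of 4 shares against 4, p = 0.0286, the smallest this design allows). In the other direction, *Nvncol1* was detected in 5.20%, 7.54%, 4.68% and 6.44% of *Nvncol3*-positive cells and in 0.249%, 0.261%, 0.169% and 0.236% of *Nvncol3*-negative cells. These means were 5.96% ± 1.28 and 0.229% ± 0.0413 (SD, n = 4), with a difference of 5.73 points and the same direction in each of the 4 (p = 0.0286 in the same two-sided exact test by permutation). With libraries as pairs, a replicate block, the smallest p that 4 pairs allow is 0.125, and both differences reached it. The cells with both transcripts had median depths of 8414, 4311, 5532 and 3071 UMIs before thinning, and those with *Nvncol3* alone 4619, 3496, 3803 and 2192. Those with *Nvncol1* alone had 1438, 2097, 2717 and 2827 UMIs, and those with neither 7635, 5582, 6252 and 3653. Cells with both were deeper than cells with *Nvncol3* alone in 4 of 4 libraries, and the part of depth in joint detection was not tested.

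**Figure D1:**
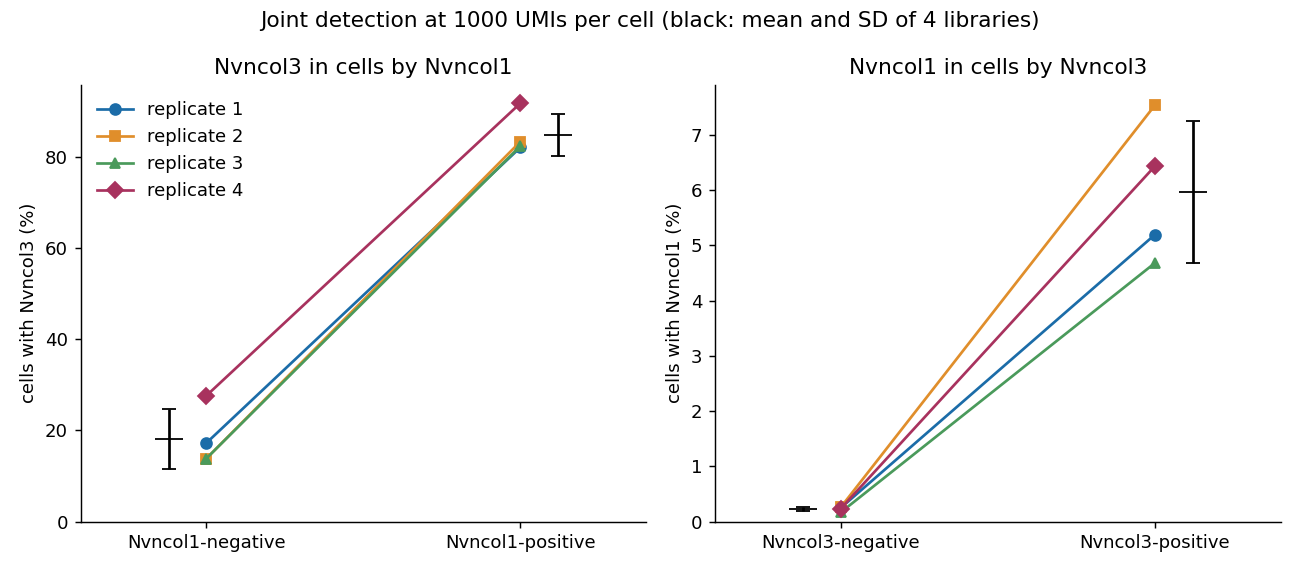
Percentage of cells with *Nvncol3* by detection of *Nvncol1* (left) and with *Nvncol1* by detection of *Nvncol3* (right), in cells thinned to 1000 UMIs. Each coloured marker is 1 library, lines join the sets of cells of a library, and black bars give the mean and SD of 4 libraries; the shares rise from a mean of 18.1% to 84.9% and from 0.229% to 5.96%.

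The levels of the genes followed the same pattern. For each library the UMIs of a set of cells were added up. The 8 sums of a comparison entered the quasi-likelihood test of edgeR with TMM scaling, unpaired, without the library as a block. Adjustment was over all genes tested by the Benjamini-Hochberg method, with a threshold of 0.05. The gene that defines the sets was not tested. *Nvncol3* reached 13230, 11270, 10660 and 9326 CPM in *Nvncol1*-positive cells and 1537, 1171, 1289 and 1464 CPM in *Nvncol1*-negative cells. Every positive sum was above every negative one. The difference was 3.59 on the log2 scale (edgeR adjusted p = 7.63e-08, standard error 0.21), where 17.0% of the 15945 genes tested passed the threshold in that comparison. It stayed past the threshold in all alternatives run, between 2.72 with thinned counts summed and 4.13 with cells thinned to 2000 UMIs.

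*Nvncol1* reached 109.8, 246.3, 115.2 and 121.3 CPM in *Nvncol3*-positive cells and 2.77, 1.73, 0.999 and 5.62 CPM in *Nvncol3*-negative cells. The lowest positive sum was again far above the highest negative one. The difference was 5.98 on the log2 scale (edgeR adjusted p = 3.86e-06, standard error 0.49), where 26.0% of 16830 genes passed the threshold. Without the 4 barcodes with the most *Nvncol1* UMIs it was 5.79. It was 6.71 without replicate 4 and 7.21 without the 5% of cells with the most UMIs. Scaling moves these values: relative to scaling by total UMIs, TMM raised the median log2 fold change of all genes by 0.58 and 0.35 in the 2 comparisons. Scaled by total UMIs, the *Nvncol3* and *Nvncol1* values were 3.03 and 5.62, and the share of calls that were higher in the positive cells was 19.9% and 19.7% in place of 76% and 68.4%.

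Because *Nvncol3* was also detected in *NvsnailA*-positive cells, thinned cells were divided by their number of *Nvncol3* UMIs of 1000. The limits of these classes were set after the levels were seen, so the values are a description. Among the classes from 1 to 49 UMIs, the share of cells was lowest at 5 to 9 or 10 to 19 and higher again at 20 to 49 in each library, in classes that widen with the count. Cells with 20 to 49 UMIs made up 4.70%, 4.23%, 4.28% and 4.22% of replicates 1 to 4, a mean of 4.36% ± 0.228 (SD, n = 4). This class was nearly as frequent in the shallow replicate 4 as in the others, whereas detection at 1 or more UMIs was most frequent there. It held 71.6%, 67.5%, 76.5% and 53.2% of the thinned *Nvncol3* UMIs. Cells with 2 to 4 UMIs made up 2.36%, 1.56%, 1.78% and 6.77%, and those with 5 to 9 made up 1.20%, 1.37%, 1.06% and 3.75%. The excess of *Nvncol3*-positive cells in replicate 4 therefore lay in the low and middle classes. Only 16 cells in all held 50 or more of 1000 UMIs as *Nvncol3*.

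**Figure D2:**
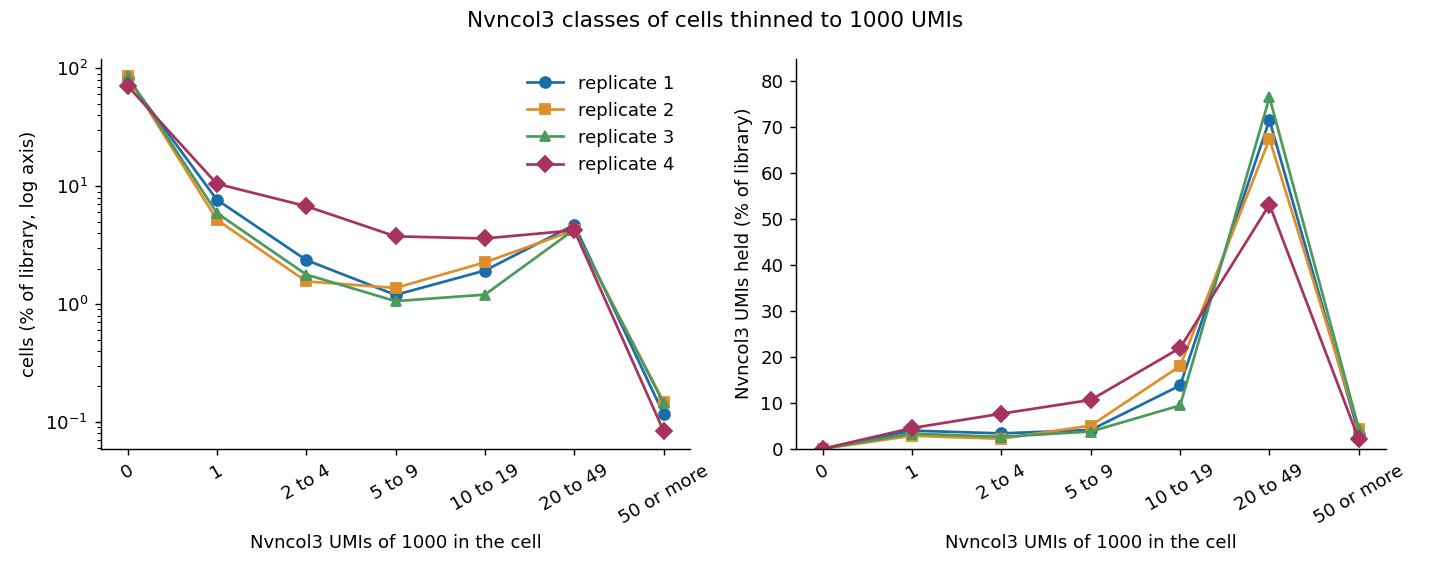
Cells of each library in classes of *Nvncol3* UMIs after thinning to 1000 UMIs, as a percentage of cells on a log axis (left) and as a percentage of the library's thinned *Nvncol3* UMIs (right). Each line is 1 library; the class of 20 to 49 UMIs is close to 4.36% of cells in all 4 libraries and holds between 53.2% and 76.5% of the UMIs, while replicate 4 lies above the others from 1 to 19 UMIs.

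*Nvncol1* was also read in these classes, which are set by the *Nvncol3* count itself. Over the 4 libraries, *Nvncol1* was detected in 0.234% of cells with no *Nvncol3*, 1.39% of cells with 1 UMI, 5.32% with 2 to 4, 8.02% with 5 to 9, 14.4% with 10 to 19 and 10.1% with 20 to 49. Among the 16 cells with 50 or more it was detected in 0, which allows a share of up to 18.8%. By library, the share in the class of 10 to 19 was 12.1%, 11.5%, 4.00% and 17.2%, and that in the class of 20 to 49 was 8.07%, 8.77%, 4.49% and 13.9%. The peak lay at 10 to 19 in replicates 1 and 4 and at 5 to 9 in replicates 2 and 3, and these classes hold between 22 and 224 cells a library, so their order is not resolved.

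The 5 to 9 class held the most *Nvncol1* relative to all UMIs, at 277.8 CPM over the 4 libraries, but 2 of the 4 top barcodes lay in it. Without the top barcodes it held 162.4 CPM, below the 217.2 CPM of the class of 10 to 19 and near the 159.9 CPM of the class of 20 to 49. In replicate 2 its level was 934.1 CPM with the top barcode and 69.8 CPM without it. Cells with 10 or more *Nvncol3* UMIs held 86.5% ± 6.25 of the thinned *Nvncol3* UMIs, and cells with 2 to 9 held 9.84% ± 5.65 (SD, n = 4). Of the *Nvncol1* UMIs in full counts, where deeper cells weigh more, they held 31.1% ± 7.13 and 50.1% ± 17.99. Of the thinned cells with *Nvncol1*, 47.5% ± 13.06 had 10 or more *Nvncol3* UMIs and 29.9% ± 15.75 had 2 to 9. Without the 4 top barcodes the order of the mean shares of full *Nvncol1* counts turned. They were 43.8% ± 12.8 in cells with 10 or more and 39.4% ± 12.6 in cells with 2 to 9. Without them the share in cells with 10 or more was 48.0%, 59.8%, 30.9% and 36.3% in replicates 1 to 4, and in replicate 2 it had been 26.8%. By library the order turned in replicate 2 alone, where cells with 2 to 9 held 66.0% with and 24.1% without the top barcode. With and without the top barcodes, cells with 10 or more held more in replicate 1, and cells with 2 to 9 in replicates 3 and 4. The order of the means therefore depended on the top barcodes, and the libraries did not share 1 order either way.

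**Figure D3:**
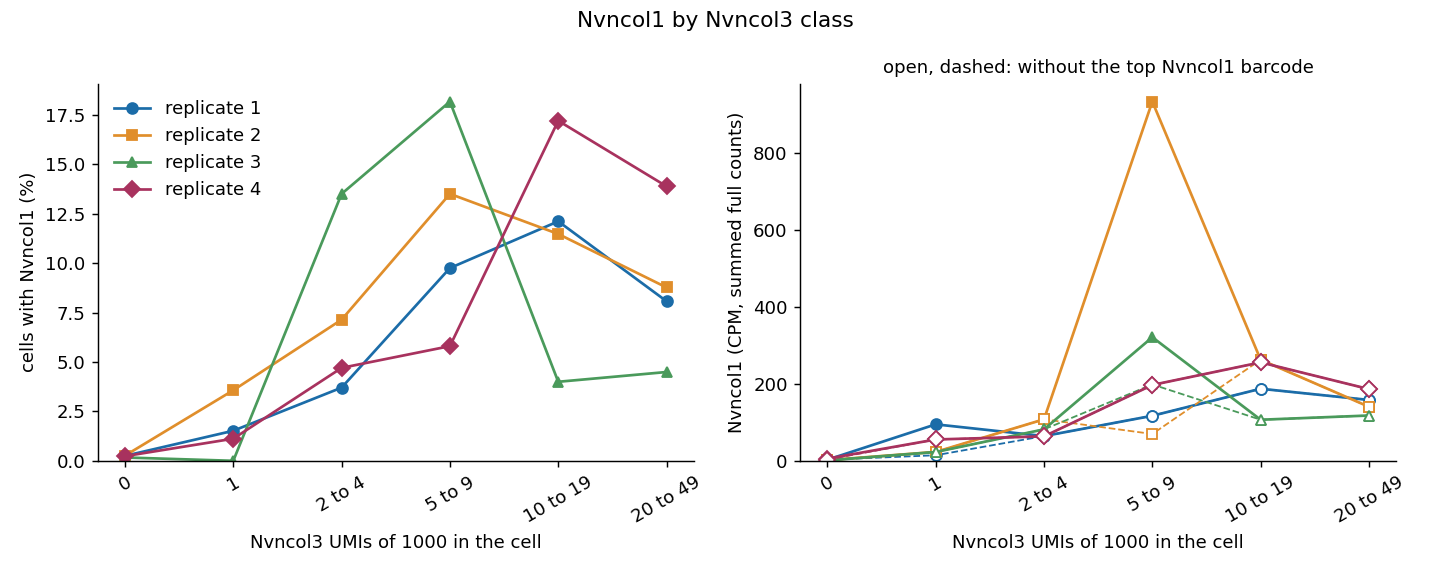
*Nvncol1* by class of *Nvncol3* UMIs of 1000, as the percentage of cells with at least 1 *Nvncol1* UMI after thinning (left) and as CPM of the summed full counts (right). Each line is 1 library; open symbols and dashed lines leave out the barcode with the most *Nvncol1* UMIs, which lowers replicate 2 from 934.1 to 69.8 CPM in the class of 5 to 9.

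Read from the side of *Nvncol1*, before thinning, *Nvncol3* was nearly always present once *Nvncol1* was above 1 UMI. Of the 15496 cells with no *Nvncol1*, 9310 also lacked *Nvncol3*, and of the 283 cells with 1 *Nvncol1* UMI, 57 lacked it. It was absent from 5 of 147 cells with 2 to 4 *Nvncol1* UMIs, and from 0 of 85 with 5 to 9 and 0 of 78 with 10 or more. These cells are deeper, with medians of 6789, 16080 and 25260 UMIs against 3632 in cells with no *Nvncol1*, and depth was not equalised in these counts. Scaled to depth, the median *Nvncol3* count per 1000 UMIs was 0 in cells with no *Nvncol1*, 2.38 at 1 UMI, 11.4 at 2 to 4, 16 at 5 to 9 and 7.12 at 10 or more. The libraries did not share 1 order. In cells with 10 or more *Nvncol1* UMIs the median was 8.40, 9.60, 5.87 and 6.11 in replicates 1 to 4, and it was the highest of the 5 medians in replicate 2, while replicate 1 was highest at 2 to 4 and replicates 3 and 4 at 5 to 9. The cell with the most *Nvncol3* in replicates 1 to 3 held 0 *Nvncol1* UMIs, and that of replicate 4 held 19. Among cells with both transcripts, the Spearman correlation of the 2 depth-scaled counts was 0.455, 0.172, 0.0475 and 0.279 over 129, 78, 54 and 270 cells, which share their library and total count.

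Markers of other cell classes were then read in the same *Nvncol3* classes. They were 10 genes listed by the study: *Nvelav*, an RNA-binding protein of neurons, *NvLWamide*, a neuropeptide precursor, and *NvashA*, an *achaete-scute* family bHLH factor, for neurons, *Nvath-like*, an *atonal*-related bHLH factor, the transcription factor *Nvmyc1* and *Nvnanos* for progenitors, *Nvmucin* for gland cells, *NvsnailA* for mesoendoderm, the signalling ligand *Nvwnt2* for trunk ectoderm, and NV2g011441000.1, an ID that the study lists for both *Nvsix3/6* and *NvfoxA*, markers of opposite ends of the body, so that it is given here by its ID alone. Their summed level ran from 516.8 to 609.9 CPM in cells without *Nvncol3*, from 605.3 to 795.3 CPM in the class of 2 to 4, from 196.4 to 318.1 CPM in the class of 10 to 19 and from 37.6 to 95.7 CPM in the class of 20 to 49. The cells with 20 to 49 *Nvncol3* UMIs thus held little of the other markers, and each of the 10 was below its level in cells without *Nvncol3* in 4 of 4 libraries. They were also shallower, with median depths of 4032, 3607, 3395 and 2036 UMIs against 7614, 5582, 6252 and 3649, and held fewer genes per 1000 UMIs, with medians of 499 to 539 against 607 to 641. The 10 mitochondrial genes listed by the study took 0.717% to 1.17% of their UMIs, against 0.707% to 1.10%. The part of depth in the marker levels was not tested.

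In the class of 20 to 49, *NvLWamide* had 0.768, 0, 8.30 and 1.96 CPM in replicates 1 to 4, against 83.1, 76.2, 101.5 and 104.7 CPM in cells without *Nvncol3*, where the count of 0 allows up to 4.48 CPM. *NvsnailA* had 1.54, 7.47, 0 and 2.62 CPM, against 60.5, 59.9, 60.5 and 68.1 CPM. *Nvwnt2* had 13.1, 31.4, 16.6 and 10.5 CPM, against 173.5, 162.3, 166.5 and 189.8 CPM. The class of 2 to 4 was mixed. *Nvmucin* and *NvsnailA* lay below their level in cells without *Nvncol3* in 4 of 4 libraries and *Nvwnt2* in 3 of 4, whereas 5 of the 10 markers, *Nvelav*, *NvLWamide*, *NvashA*, *Nvmyc1* and *Nvnanos*, lay above their level in cells without *Nvncol3* in 4 of 4 libraries. *NvLWamide* had 155.7, 123.9, 328.5 and 142.0 CPM in that class.

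*NvashA* was high over a wider range of *Nvncol3* counts than *NvsnailA*. Over the 4 libraries it had 30.3 CPM in cells without *Nvncol3*, 57.3, 46.5 and 43.2 CPM in the classes of 2 to 4, 5 to 9 and 10 to 19, and 1.46 CPM in the class of 20 to 49. In the class of 5 to 9 the libraries differed widely, with 34.9, 7.55, 120.7 and 39.4 CPM of *NvashA*. Replicate 2, with 4 UMIs, lay below its 26.1 CPM in cells without *Nvncol3*. In the class of 10 to 19 it had 47.5, 50.9, 62.0 and 30.4 CPM, while *NvsnailA* had 21, 4.07, 3.45 and 1.84 CPM there. *NvashA* was thus above its level in cells without *Nvncol3* in 3 of 4 libraries in a class where *NvsnailA* was below it in 4 of 4, and it was near 0 in the class above.

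**Figure D4:**
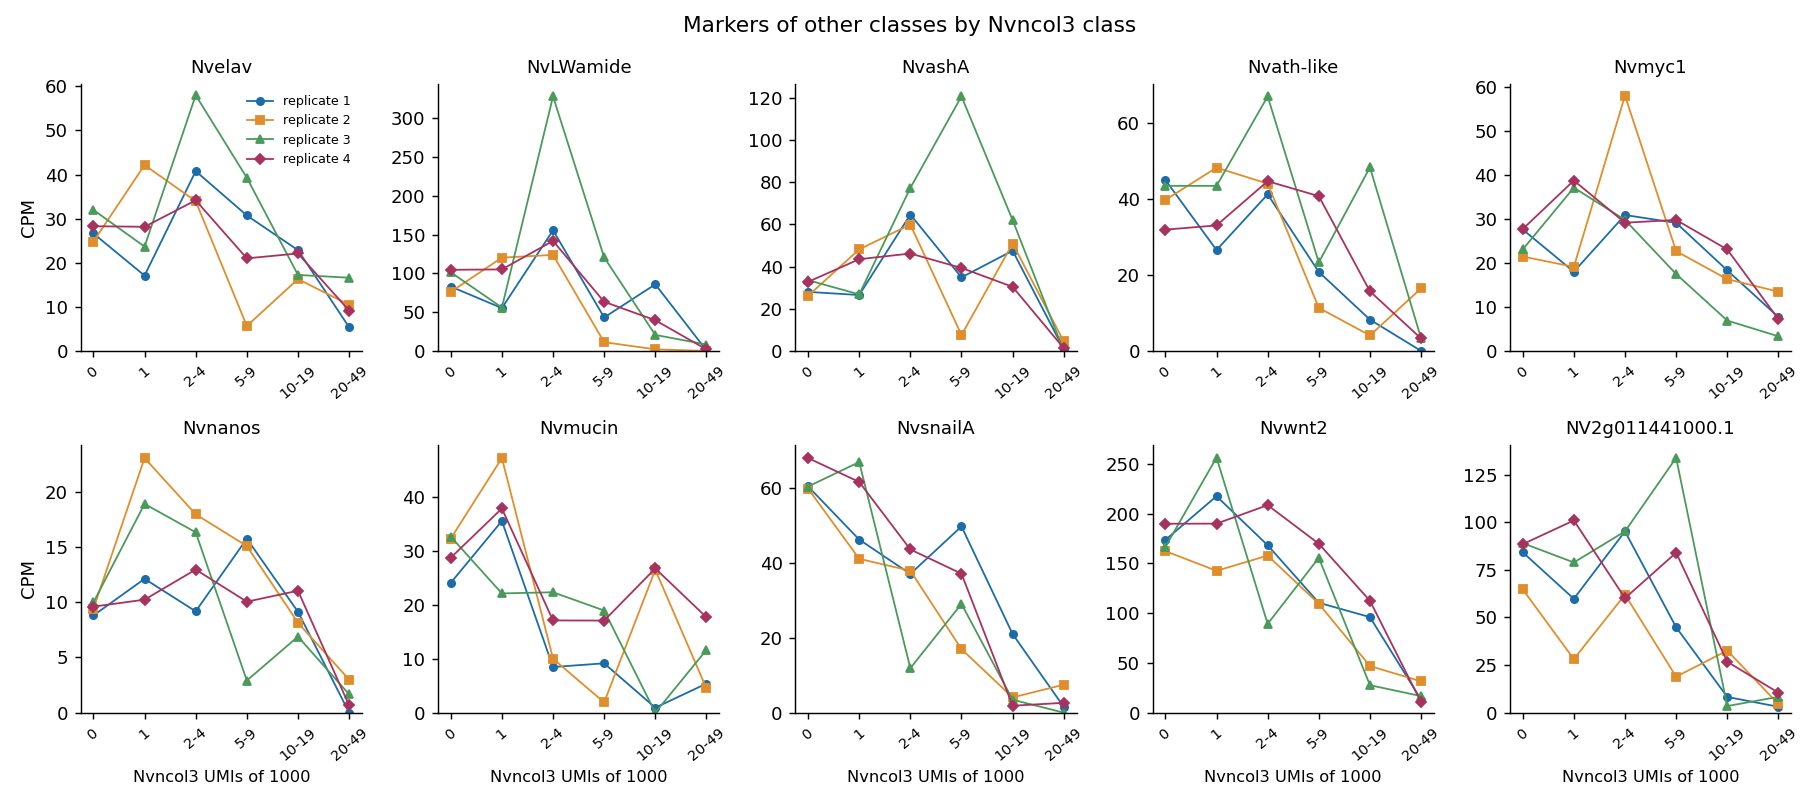
CPM of the 10 markers of other cell classes, 1 panel each, by class of *Nvncol3* UMIs of 1000, with 1 line per library. All 10 markers are below their level in cells without *Nvncol3* at 20 to 49 UMIs in all 4 libraries, while 5 of them, *NvashA* and *NvLWamide* included, are above it at 2 to 4 UMIs and 2, *Nvmucin* and *NvsnailA*, are below it.

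The same markers were compared between cells with and without each minicollagen. Between *Nvncol1*-positive and *Nvncol1*-negative cells, 1 of 10 markers was higher and 1 lower past the threshold, with a median log2 fold change of 0.01 over the 10 and of -0.185 over all genes tested. The 2 of 10 that passed are near the 17.0% of all genes. Scaled by total UMIs, 1 marker was higher and 4 lower (*Nvmucin*, *NvsnailA*, *Nvwnt2* and NV2g011441000.1), where 48.7% of all genes passed. *NvashA* had 54.2, 91.1, 139.8 and 106.0 CPM in *Nvncol1*-positive cells and 29.8, 26.1, 36.0 and 31.9 CPM in negative cells. It rose in 4 of 4 libraries with no overlap (log2 fold change 2.16, edgeR adjusted p = 7.89e-06, standard error 0.21), and it stayed past the threshold in all alternatives run, from 1.17 with thinned counts summed to 3.06 with detection at 2 or more UMIs. *Nvmucin* was lower (log2 fold change -1.37, adjusted p = 0.0136 from edgeR), but this call did not hold under another random draw of the thinning (0.09), with cells thinned to 2000 UMIs (0.22), or without replicate 2 or replicate 4 (adjusted p = 0.0775 and 0.0803).

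The count of markers past the threshold depended on the deepest barcodes. Without the 5% of cells with the most UMIs in each library, 9 of 10 markers passed between *Nvncol1*-positive and *Nvncol1*-negative cells, 1 higher and 8 lower, where 40.8% of all genes passed and 32.9% of these were higher. *NvashA* was the one that was higher, at a log2 fold change of 1.97 (adjusted p = 0.00028 from edgeR), *NvLWamide* fell to -5.08 and *Nvelav* to -2.51, and *Nvmyc1* did not pass (-0.50). With all cells kept, *NvLWamide* had 8.67, 110.3, 0 and 103.5 CPM in the *Nvncol1*-positive cells, so that 4, 46, 0 and 123 UMIs decided its value. In replicate 4 the cells with both minicollagens held 0 *NvLWamide* UMIs, so the 123 lay in the 10 cells with *Nvncol1* alone. The top *Nvncol1* barcode of that library, with 277444 UMIs in all, was among those 10. How many of the 123 it held was not read. With the library as a replicate block, 3 of 10 markers passed, 1 higher and 2 lower. What these deep barcodes contain was not tested, and no doublet caller was run.

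Between *Nvncol3*-positive and *Nvncol3*-negative cells, 3 of 10 markers passed, 2 higher and 1 lower, near the 26.0% of all genes. Scaled by total UMIs the balance turned, with 1 higher (*NvashA*) and 4 lower (*Nvath-like*, *Nvmucin*, *NvsnailA* and *Nvwnt2*), where 59.2% of all genes passed. *NvsnailA* had 33.8, 23.6, 32.3 and 38.4 CPM in positive cells and 60.5, 59.9, 60.5 and 68.1 CPM in negative cells, without overlap (log2 fold change -0.59, standard error 0.11, adjusted p = 0.0024 from edgeR). *NvashA* had 38.6, 34.1, 52.9 and 36.5 CPM against 28.0, 26.1, 33.6 and 32.7 CPM (log2 fold change 0.78, adjusted p = 0.00177 from edgeR). With thinned counts summed, *NvashA* was at -0.0021 (adjusted p = 0.999 from edgeR) and *NvsnailA* at -0.32 (adjusted p = 0.453), and without any thinning *NvashA* was at 0.17 (adjusted p = 0.379). *Nvnanos*, a translational repressor of germline and stem cells in other animals, also passed (0.55, adjusted p = 0.0138 from edgeR), but not with thinned counts summed (0.42), nor with scaling by total UMIs (0.20), nor with at least 5 *Nvncol3* UMIs (0.25), nor without replicate 3 (adjusted p = 0.0677). With the library as a replicate block, 5 of 10 passed, 4 higher and 1 lower. Without any thinning, *NvsnailA* turned to 0.30 and *Nvnanos* to -0.03.

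Cells with both minicollagens were compared with cells that held *Nvncol3* alone, which asks what accompanies detection of *Nvncol1* among *Nvncol3*-positive cells. The sets were called on thinned counts, so cells with *Nvncol3* alone can hold *Nvncol1*. Their full counts held 435, 158, 277 and 495 *Nvncol1* UMIs, or 53.5, 55.0, 81.1 and 46.1 CPM. Cells with both held 1168, 1787, 1092 and 1038 CPM. Of 10823 genes tested, 1573 or 14.5% passed the threshold, and 1 of the 10 markers was among them. This was *NvashA*, with 46.3, 53.3, 159.6 and 114.6 CPM in cells with both and 38.2, 31.7, 49.2 and 30.1 CPM in cells with *Nvncol3* alone (log2 fold change 1.74, standard error 0.33, adjusted p = 0.00239 from edgeR). It was higher in 4 of 4 libraries, but the ranges overlapped in replicate 1 against replicate 3, and the call did not hold without replicate 4 (adjusted p = 0.078) or with at least 5 *Nvncol3* UMIs (adjusted p = 0.139). The summed level of the 10 markers was 178.1, 356.2, 218.4 and 305.2 CPM in cells with both and 456.0, 354.3, 545.1 and 524.9 CPM in cells with *Nvncol3* alone. Of the 10 markers, 7 had no UMI in the cells with both of replicate 3, where only 14 cells were found. Scaled by total UMIs, 6 of the 10 passed, 1 higher and 5 lower, and 23.7% of all calls were higher in place of 86.7%. With the library as a replicate block, 2 of 10 passed.

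Among genes that passed in this comparison with at least 20 UMIs and 1 direction in 4 of 4 libraries, the largest rises and falls were in genes without a name in the sources used. NV2g013683000.1 had 543.5, 723.8, 1176 and 569.7 CPM in cells with both and 11.3, 18.5, 38.7 and 59.6 CPM in cells with *Nvncol3* alone, without overlap (log2 fold change 5.08, standard error 0.48, adjusted p = 1.41e-05 from edgeR). NV2g018171000.1 had only 14 UMIs in cells with both and 8 in cells with *Nvncol3* alone, a ratio of 24.6 with a counting interval of 9.63 to 67.7. At the other end, NV2g020061000.1 and NV2g007634000.1 had 0 UMIs in cells with both and 297 and 286 in cells with *Nvncol3* alone. With a floor of 3 counts over the group they were at least 7.04-fold and 6.78-fold lower. The rises and falls named here were picked with *Nvncol3* called at 1 or more UMIs. Their values among cells with at least 5 *Nvncol3* UMIs were not read.

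Cells with *Nvncol3* alone were also set against cells with neither. Here 3995 of 16790 genes, 23.8%, passed the threshold, and 3 of the 10 markers were among them: *NvashA* (log2 fold change 0.64, adjusted p = 0.0163), *Nvnanos* (0.58, adjusted p = 0.0101) and *NvsnailA* (-0.61, adjusted p = 0.00129), all from edgeR. *NvashA* had 38.2, 31.7, 49.2 and 30.1 CPM against 27.9, 25.3, 33.6 and 32.4 CPM, so it was higher in 3 of 4 libraries and the ranges overlapped. *NvsnailA* had 33.0, 25.1, 31.6 and 39.4 CPM against 60.6, 60.1, 60.5 and 68.2 CPM, without overlap. With at least 5 *Nvncol3* UMIs only *NvsnailA* passed, at -1.18. The *NvashA* call did not hold without replicate 1, 2 or 3 (adjusted p = 0.0864, 0.0566 and 0.0523 from edgeR) or without the 5% of cells with the most UMIs (0.29), and that of *Nvnanos* not without replicate 3 (adjusted p = 0.0534). With thinned counts summed *NvashA* was at -0.15, *Nvnanos* at 0.44 and *NvsnailA* at -0.36 (adjusted p = 0.73, 0.345 and 0.43 from edgeR), and without thinning *NvsnailA* turned to 0.34. This comparison shares most of its cells with that of *Nvncol3*-positive and *Nvncol3*-negative cells, so the values are not a second measurement. With the library as a replicate block, 5 of 10 passed, and scaling by total UMIs left *NvashA* and *Nvnanos* short of the threshold (0.31 and 0.27) and made 20.6% of all calls higher in place of 69.4%.

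The last comparison started from the other markers and asked how often their cells held a minicollagen. In *NvashA*-positive cells, *Nvncol1* was detected in 2 of 68, 2 of 62, 3 of 49 and 7 of 215 cells, or 2.94%, 3.23%, 6.12% and 3.26%. In *NvashA*-negative cells the shares were 1.10%, 1.29%, 0.690% and 1.98%. *Nvncol1* was thus more frequent in the *NvashA*-positive cells of 4 of 4 libraries, at a mean of 3.89% ± 1.497 against 1.27% ± 0.539 (SD, n = 4; two-sided exact permutation test, p = 0.0286, adjusted p = 0.286 over 20 tests). It rests on 14 cells in all and did not pass the adjustment.

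Of the other 9 markers, NV2g011441000.1 alone had a higher mean share of *Nvncol1* in its positive cells, at 1.43% ± 1.39 against 1.33% ± 0.499 (SD, n = 4). That share was higher in replicate 2 alone, where 3 of 96 cells held *Nvncol1*, and lower in replicates 1, 3 and 4. *Nvncol1* was found in 1 of 597 *NvLWamide*-positive, 11 of 1907 *Nvwnt2*-positive and 2 of 444 *Nvmucin*-positive cells. Each of these shares was lower than in negative cells in 4 of 4 libraries (exact permutation test, p = 0.0571, adjusted p = 0.286). *Nvncol3* at 1 or more UMIs was found in 12.5% ± 5.54 of *NvsnailA*-positive against 19.2% ± 6.90 of negative cells, and in 13.3% ± 8.81 of *Nvwnt2*-positive against 19.9% ± 6.52 of negative cells (SD, n = 4). Both were lower in 4 of 4 libraries, within the spread between libraries (exact permutation test, p = 0.2 and 0.257, adjusted p = 0.571).

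In all, 0 of 20 such tests passed the adjusted threshold and 1 had an unadjusted p under 0.05 (exact permutation tests). Of the 20 differences, 6 were positive and 14 negative. Counting only cells with at least 5 *Nvncol3* UMIs of 1000, *Nvncol3* was less frequent on average in the positive cells of all 10 markers, at 2.37% of *NvsnailA*-positive, 2.33% of *Nvwnt2*-positive and 2.83% of *NvLWamide*-positive cells, against 8.76%, 9.53% and 8.78% of the respective negative cells. *NvashA*-positive cells came closest, with 7.71% against 8.60%. The adjusted p was at least 0.127 for each of these. Without thinning, when cells differ in depth, 18 of the 20 differences were positive.

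**Figure D5:**
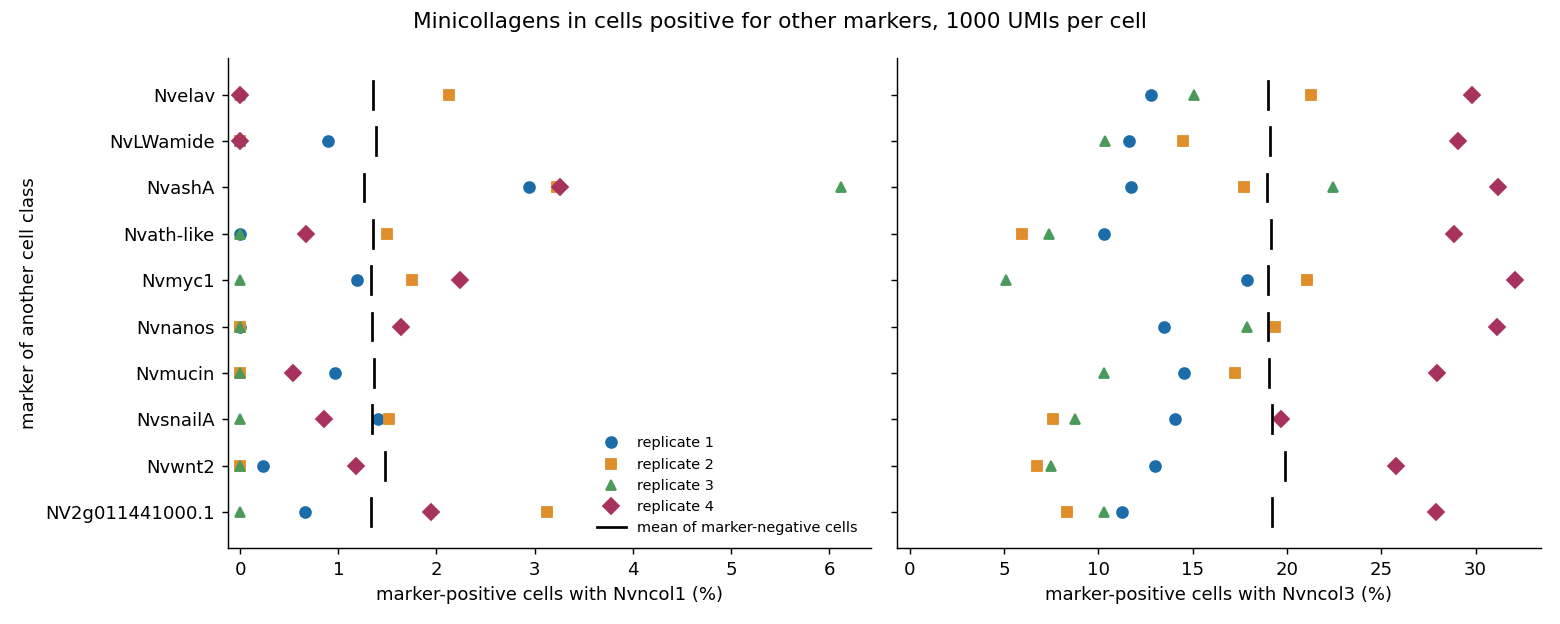
Percentage of the cells positive for each of 10 markers in which *Nvncol1* (left) or *Nvncol3* (right) was detected, at 1000 UMIs a cell. Symbols are the 4 libraries and the black bar is the mean over libraries in marker-negative cells; *NvashA*-positive cells lie at 2.94% to 6.12% for *Nvncol1*, right of the bar in all 4 libraries, and replicate 4 lies highest for *Nvncol3* at every marker.

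Detection of each minicollagen was also compared with that of 15371 other genes by the phi coefficient over thinned cells, averaged over the 4 libraries. The genes most like *Nvncol1* were NV2g005194000.1, with a mean phi of 0.357 (0.270, 0.367, 0.399 and 0.391 in replicates 1 to 4), and NV2g020325000.1, with 0.356 (0.247, 0.397, 0.384 and 0.396). The first of these was detected in 129 and the second in 125 of the 213 *Nvncol1*-positive cells. The genes most like *Nvncol3* were NV2g005200000.1, with 0.585 (0.530, 0.650, 0.633 and 0.527), and NV2g020489000.1, with 0.567 (0.550, 0.650, 0.578 and 0.490). The first of these IDs differs only in its last digits from NV2g005200001.1, the ID listed for the cnidocyte marker *NvNgal*, and whether they are the same gene could not be told. *Nvncol1* and *Nvncol3* had a phi of 0.195 with each other, which placed *Nvncol3* at rank 107 for *Nvncol1* and *Nvncol1* at rank 276 for *Nvncol3*. The minicollagens were therefore each more like other genes than like one another by this measure, which falls when 1 gene is detected in far fewer cells than the other.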

How the data were processed

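Single cell RNAseq was performed on 4 technical replicates of *N. vectensis* gastrulae. For each library the deposited values are raw UMI counts without normalization, made by the authors by alignment to introns and exons and cell calling with Cell Ranger, given as version 7.1.1 in the submitters' processing notes and as 6.1.2 in the matrix headers. Seurat 4 is also named in the notes. Gene IDs (NV2g) are those of the files, no genome build is named in the labels, and none of the IDs matched the RefSeq table at hand, so no sequence is shown. Gene IDs of the members and the other markers come from the study's marker table. The listed ID of the third cnidocyte marker, *NvNgal* (NV2g005200001.1), was not matched exactly, so *NvNgal* was not analysed here under its name.

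Barcodes with at least 500 genes were kept and thinned to 1000 UMIs with a fixed random seed. No clustering and no doublet caller were used. UMIs were summed per library and cell set (8 sums per comparison, 4 comparisons) and tested with edgeR 4.0.16 (TMM, filterByExpr, quasi-likelihood) in R 4.3.3, with Benjamini-Hochberg adjustment. Standard errors were derived from the F statistic. DESeq2 1.42.0 was an alternative. The test was also run on counts simulated from the sums and dispersions of these data. It recovered 79.5% to 100% of 200 changed genes in the 4 comparisons. Shares were compared with exact permutation tests in SciPy 1.17.1.

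The members and the gene lists were chosen with earlier results of these data known. Named genes are the members, the listed markers, the listed mitochondrial genes as a sum, the 2 genes with the highest phi coefficient of detection with each member among genes found in at least 20 thinned cells, and the 2 largest rises and falls between cells with both minicollagens and *Nvncol3* alone, past the threshold, with at least 20 UMIs and 1 direction in 4 of 4 libraries. Sums of the compared sets share their library, which pairs them by replicate number, but the main fits left this pairing out. The deviations of paired sums correlated by 0.06 to 0.19, 0.27 to 0.67, 0.0022 to 0.21 and 0.26 to 0.65 in the 4 comparisons. Alternatives changed the thinning, the detection count, the barcode filters, the scaling, the tool, the block and the libraries used, and 3 of them were added after seeing the data. Depth ranged from 22712171 to 56076579 UMIs in the kept cells of a library. Binomial intervals are exact at the 95% level, limits on counts of 0 use 3 counts, and both cover counting error only.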

Additional observations from a re-analysis of the deposited data

Results flagged for a closer look

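Of 64 quantities tested for a library far from the other 3, 13 stood out. The cutoff flags about 1 in 20 continuous values by chance, but these quantities overlap and include sparse counts. Where 3 libraries tie, as at 0, the remaining library is always flagged, so the 13 are not set against that rate. Replicate 4, whose cells were the shallowest, stood out in 6 of the 13. Its median *Nvncol3* count in positive cells was 2 UMIs against 1 in the others, *Nvncol3* was found in 91.74% of its *Nvncol1*-positive cells against 82.05% to 83.33%, and its cells with 2 to 4 and 5 to 9 *Nvncol3* UMIs of 1000 made up 6.769% and 3.753% against at most 2.363% and 1.371%. *Nvncol1* was found in 1.639% of its *Nvnanos*-positive cells against 0 of 37, 0 of 31 and 0 of 28 in replicates 1 to 3, which allow up to 8.11%, 9.68% and 10.7%, and *Nvncol3* in 27.92% of its NV2g011441000.1-positive cells against 8.333% to 11.26%.

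Replicate 1 stood out with 4.697% of cells at 20 to 49 *Nvncol3* UMIs against 4.223% to 4.283%, with 185.9 CPM of *Nvncol1*, from 2 UMIs, in cells at 50 or more, and with *Nvncol1* in 0.8929% of *NvLWamide*-positive cells, which is 1 cell, against 0 in the others, where a count of 0 allows up to 3.95%, 5.17% and 0.855%. Replicate 2 stood out with 246.3 CPM of *Nvncol1* in *Nvncol3*-positive cells against 109.8 to 121.3, where 1 barcode held 459 of its *Nvncol1* UMIs, and with *Nvncol1* in 2.128% of *Nvelav*-positive cells, also 1 cell, against 0 in the others, which allow up to 3.85%, 5.66% and 1.66%. Replicate 3 stood out with *Nvncol1* in 6.122% of *NvashA*-positive cells against 2.941% to 3.256%, and with 4.274% of its *Nvncol3* UMIs in 1 barcode against 1.794% to 2.208%.

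Barcodes with fewer than 500 genes were used in no comparison, and they too held minicollagen UMIs. *Nvncol3* had a mean of 3626 CPM there, with 3070, 3863, 3460 and 4113 CPM in replicates 1 to 4, which is 1.86, 2.89, 2.58 and 2.52 times its level in the cells kept. *Nvncol1* had a mean of 53.12 CPM, from 14, 17, 12 and 55 UMIs. There are no control samples, and both are above the limit that a count of 0 allows.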

How the results depend on the processing

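The direction of both minicollagen fold changes and of both joint detection shares held in all alternatives run, and both fold changes stayed past the threshold. With the library as a replicate block in a paired test, the differences of 66.75 and 5.734 percentage points kept their size but the exact permutation p rose to 0.125, the smallest that 4 pairs allow. Leaving out 1 library at a time gave 65.83 to 67.62 and 5.22 to 6.141 points, with a smallest possible p of 0.1. In the edgeR fits the replicate block moved no total of genes past the threshold by over 1.5 times (1952, 5470, 1185 and 5003 genes in the order *Nvncol1*-positive against negative, *Nvncol3*-positive against negative, both against *Nvncol3* alone, and *Nvncol3* alone against neither, in place of 2709, 4384, 1573 and 3995), but it moved the lower calls from 651 to 252 in the first and from 209 to 83 in the third, and in the same order 3, 5, 2 and 5 of the 10 markers passed, in place of 2, 3, 1 and 3.

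In that order, scaling by total UMIs, chosen after seeing the data, gave 7763, 9958, 3960 and 9085 genes, of which 1545, 1963, 940 and 1871 were higher, in place of 2058, 2999, 1364 and 2772. Summing thinned counts gave 1632 (708 higher), 1981 (1583 higher), 545 (405 higher) and 1791 (1436 higher). Without thinning the last 3 comparisons gave 2621, 2620 and 1768. At least 5 *Nvncol3* UMIs, also chosen after seeing the data, gave 7650, 905 and 7321 in the last 3, of which 4241, 685 and 4044 were higher. The first comparison gave 4939 (1772 higher) with detection at 2 UMIs and 6229 (2047 higher) without the top 5% of barcodes, and the third gave 3423 (2073 higher) with thinning to 2000 UMIs and 946 to 1342 when 1 library was left out, the lowest without replicate 4. Fewer cells and genes enter some of these fits, and the cause of each move was not tested.

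Among single markers the following turned sign, with a value past the threshold in at least 1 of the settings. Between *Nvncol1*-positive and negative cells, *Nvelav* was -2.51 without the top 5% of barcodes, *NvLWamide* was -4.64 with thinned sums, -5.46 at 2 UMIs, -5.08 without the top 5% and -3.37 with another random seed, *Nvath-like* was -1.71 and -1.47 with thinning to 500 and 2000 UMIs, -1.91 at 2 UMIs and -2.22 without the top 5%, and *Nvmucin* was 0.22 with thinning to 2000 UMIs and 0.090 with another seed. Between *Nvncol3*-positive and negative cells, *NvashA* was -0.0021 with thinned sums, *Nvnanos* was -0.027 and *NvsnailA* 0.30 without thinning, and *Nvwnt2* was -0.34 with total scaling and -0.38 at 5 UMIs. For both against *Nvncol3* alone, *NvLWamide* was 1.02 without thinning. For *Nvncol3* alone against neither, *NvashA* was -0.15 with thinned sums and -0.15 without thinning, where *Nvnanos* was -0.029 and *NvsnailA* 0.34. A further 129 changes of sign concerned values short of the threshold in both settings. Of the other values for genes, markers and levels, 1020 stayed on their side of the threshold or within the spread between libraries, those 129 among them, while 61 came to pass the threshold, 21 no longer passed it, and 31 moved by more than the spread or, for counts of markers, by over 1.5 times.

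Shares of cells followed the depth of thinning and the count that called a cell positive. Cells with *Nvncol1* were 0.8116%, 1.967% and 3.499% with 500, 2000 and all UMIs and 0.4331% at 2 UMIs, and cells with both were 0.6196%, 1.723%, 3.075% and 0.3701% in the same order. Cells with *Nvncol3* were 38.86% without thinning, 11.69% at 2 UMIs and 8.572% at 5, and those with *Nvncol3* alone were 35.78%, 11.32% and 7.723%. Cells with *Nvncol1* alone were 0.2437% with 2000 and 0.4233% with all UMIs, 0.06304% at 2 UMIs, 0.1278% in cells with 1000 genes or more, and 0.4789% at 5 *Nvncol3* UMIs. *Nvncol1* was held by 213 thinned cells, and replicate 3 had 14 cells with both, which limits the results that rest on them.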
